A study of Mus musculus with 8 samples.

Results

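The Ifi200 cluster is a run of related PYHIN genes on mouse chromosome 1, most of which carry names given for their response to interferon. The members described here are Ifi203, Ifi204, Ifi205, Mnda, Pydc3 and Aim2, chosen by the gene name that the array design gives to each probe. Of 39429 probes on the array, 11 measured a member, and they stand for 5 of the 6 genes. 7 of them carry a member name in the design, namely 4 probes for Ifi203 and 1 each for Ifi204, Mnda and Aim2. The other 4 measure Pydc3, which the design lists under the clone name E430029J22Rik, and they were found by the transcript accession. No probe carries the name Ifi205, and the single Mnda probe also lists the Ifi205 transcript, so that these genes cannot be told apart by it. The reference gene table now calls Pydc3 Ifi208 and Mnda Ifi211, and the names of the member list are kept here.

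The 8 arrays measured RNA from IEC10 cells, an immortalized intestinal epithelial line made from mice that carry a firefly luciferase gene behind the Mx2 promoter, so that every group carries this transgene. Cells were grown for 21 days on transwell inserts, which let them polarize. They were left untreated (2 arrays, replicates 2 and 3) or stimulated for 9 h with 20 ng/mL IFN-λ2 or with 500 U/mL IFN-β (3 arrays each). The 2 cytokines were used at doses in different units, so that a difference between them is a difference between these treatments. The labels do not say whether replicates came from separate cultures, and p-values then measure only the spread between these arrays. It is a single cell line, in which fewer responding cells and less RNA per cell cannot be told apart.

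PYHIN proteins pair a pyrin domain, which binds other pyrin domains, with a HIN domain, which binds DNA, and some family members lack one of them. AIM2 is the best known: it senses double-stranded DNA in the cytosol and recruits the adaptor ASC and caspase-1 to form an inflammasome. IFN-β, a type I interferon, and IFN-λ2, a type III interferon, bind different receptors, but both act on genes that carry the interferon-stimulated response element (ISRE) in their promoters. The type III receptor is found mainly on epithelial cells.

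Values are the deposited signals in normalized gPS units, the background-subtracted signal after scaling between arrays, with a floor of 15 units. A probe on which the scanner software found no signal well above background in a whole group has only a bound there. Between 20992 and 24252 probes per array were well above background, none was saturated, and the median of the negative control features lay between 3.03 and 7.47 units. Arrays with the same replicate number shared a slide, on which each group kept its own position throughout, so that position and treatment cannot be told apart. All 8 epithelial marker genes, among them Epcam, Cdh1 and Krt8, were well above background on all 8 arrays. Of these 8, Cdh1 and Krt19 were higher with IFN-λ2 than in control (limma adjusted p = 0.025 and 0.01995), none passed with IFN-β (1 had an unadjusted p under 0.05), and Krt19 was 0.60 higher on the log2 scale with IFN-λ2 in the comparison of the cytokines (adjusted p = 0.00512), against 10.8, 1.51 and 6.15 percent of all probes higher in the 3 comparisons, and the part of these shifts in the results on the members was not tested. Of 12 blood cell marker genes, 6 were above background on all arrays, including Csf1r, Itgam and Cd14, whereas Spi1 and Tyrobp were at 15 units on every array. The summed level of the blood cell markers was 14216 to 17261 units in untreated arrays, 11642 to 13750 with IFN-λ2 and 11613 to 18355 with IFN-β, and none of the 8 tested passed in any comparison in limma (3, 1 and 3 had an unadjusted p under 0.05 for IFN-λ2, for IFN-β and between the cytokines). From control to IFN-λ2 the mean of Itgam went from 6519 to 2655 units and that of Cd14 from 4139 to 3697. Csf1r went the other way, from 4733 to 5913 units.

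The probes are 60-base oligonucleotides. The first 30 bases of those that the results turn on are given so that each reading can be tied to its sequence, with the position on mm9 from the array files. All lie on chromosome 1, and which exon or untranslated region each covers was not used here.
Ifi204, A_55_P1975560, chr1:175677647-175677706, minus strand: agtcgggagaacctctctggaaccatactt
Mnda, A_55_P1962918, chr1:175826600-175826659, minus strand: gtcacctctaaatgacagctttagtagtat
Ifi203, A_55_P1988202, chr1:175850536-175850595, minus strand: cacaattgctttctgatctgtactgacagt
Ifi203, A_55_P1966731, chr1:175854206-175854265, minus strand: agtgagaggcatgagtgcatttgctatgga
Pydc3, A_66_P128761, chr1:175625972-175627566, plus strand: tggccatgcttgctttaatagctatgcaga
Pydc3, A_55_P2181222, chr1:175628376-175628435, plus strand: tggtttctgccagtctttatgtatgcatct
Pydc3, A_55_P2001233, chr1:175628440-175628499, plus strand: gctgatgtgccacctaacttctctgttttc
The span of A_66_P128761 on the genome is much longer than the probe, whose bases are therefore not contiguous there. No member probe shared a run of more than 11 bases with another probe of the cluster. The genes themselves are close relatives, and binding of their transcripts to each other's probes was not tested.

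Either interferon raised Ifi204, Mnda and Ifi203 by at least 8.39-fold on 4 probes. Pydc3 rose on 3 of 4 probes, by 1.79-fold to at least 5.60-fold with IFN-λ2. With IFN-β the rises on these 3 were 1.31-fold, 2.20-fold and, against a control at the floor, at least 2.00-fold. On the 4 probes of Ifi204, Mnda and Ifi203 the cytokines differed by at most 0.25 on the log2 scale, which did not pass the test. The level of Pydc3 on its 3 probes was higher with IFN-λ2. Aim2 stayed at the floor in every array. Of the 11 member probes, 9 were above 15 units on at least 2 arrays and were tested. In the comparison with untreated cells, 7 of the 9 were higher after IFN-λ2 (adjusted p under 0.05 in limma), a share to be read against 10.8 percent of all 25615 probes tested. The same 7 were higher after IFN-β, where 1.51 percent of all probes were higher. That count was 6 without any 1 array or with the replicate block, 5 with normexp or with only the groups compared, and 3 with the methods' t-test after adjustment, and the Pydc3 probe raised 1.31-fold kept its call in 7 of 20 alternatives. None was lower with either cytokine, against 8.25 percent of all probes for IFN-λ2 and 0.211 percent for IFN-β, and 0 were lower in limma at an unadjusted p under 0.05. Between the cytokines, 3 of the 9, all for Pydc3, were higher with IFN-λ2, against 6.15 percent of all probes, and none was lower, against 5.32 percent. These shares of all probes themselves move when 1 interferon array is left out. The number higher with IFN-λ2 than in control was 2779 and lay between 1615 (without IFN-λ2 replicate 1) and 2991 (without IFN-β replicate 1). The number lower was 2114 and lay between 1073 and 2299. With IFN-β 386 were higher (283 to 340 without 1 interferon array) and 54 lower (16 to 37). Between the cytokines 1575 were higher and 1362 lower with IFN-λ2, which fell to 851 and 640 without IFN-λ2 replicate 1. 3 of the tested probes (1 of Ifi203 and 2 of Pydc3) were above the floor only after interferon and could enter the test only through the groups in which they were high, so that the counts are descriptions. The median log2 difference over the 9 probes was 2.63 for IFN-λ2 and 1.35 for IFN-β against control, and 0.24 between the cytokines. Over all probes tested these medians were 0.016, 0.014 and 0.00030. Each median of the members is the value of 1 dim probe (A_66_P128761, A_55_P1998843 and A_55_P2036627), measured against groups at or near the floor, and the 0.24 is a fitted value with no measured size. Over the 5 member probes that were well above background on all 8 arrays the medians were 3.66, 3.45 and 0.25. Both contrasts with control share the same 2 untreated arrays.

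**Figure D1:**
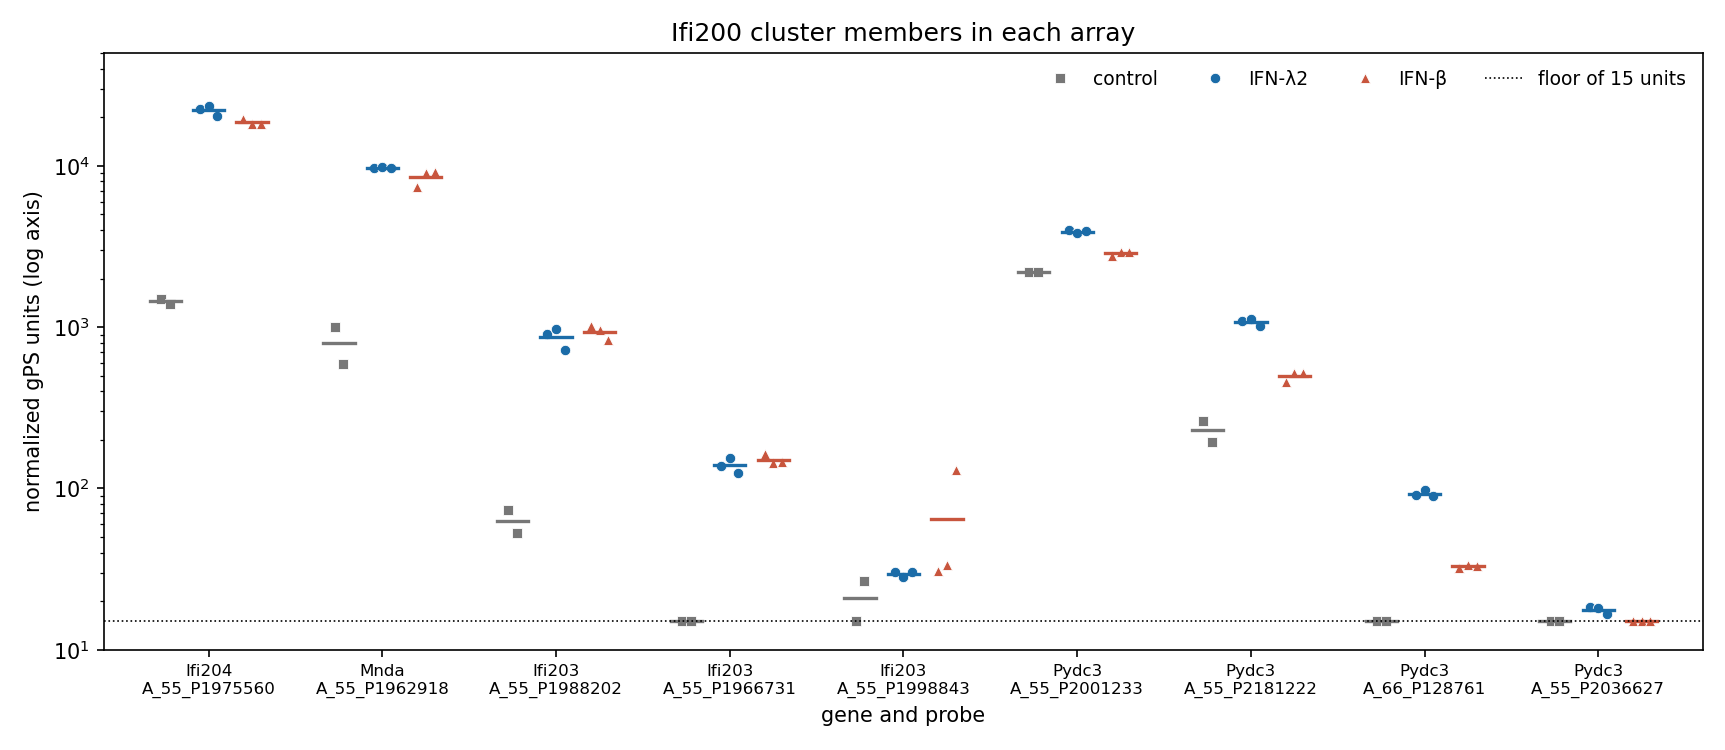
Signal of the 9 tested member probes in each array, in normalized gPS units on a log axis; squares are untreated cells (2 arrays), circles IFN-λ2 (3) and triangles IFN-β (3), short lines are group means and the dotted line is the floor of 15 units. For Ifi204, Mnda and the upper 2 Ifi203 probes both interferon groups lie far above control, and for Ifi204, Mnda and Pydc3 the IFN-β arrays lie below all IFN-λ2 arrays.

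Ifi204 encodes p204, a nuclear and cytosolic PYHIN protein with HIN domains that has been linked to DNA sensing and to cell differentiation. Its probe read 1491 and 1397 units in untreated cells. After IFN-λ2 it read 22599, 23329 and 20293 units, and after IFN-β 19403, 18247 and 18142 units. Both treated groups lay far above the untreated arrays, and the lowest IFN-λ2 array lay above the highest IFN-β array. The increase was 15.3-fold with IFN-λ2 (log2 3.93, SE 0.086, limma adjusted p = 1.41e-06) and 12.9-fold with IFN-β (log2 3.69, SE 0.086, adjusted p = 3.24e-06). The difference between the cytokines was 0.25 on the log2 scale (95% interval 0.064 to 0.43) and did not pass after adjustment in limma (adjusted p = 0.0925, unadjusted p = 0.0151). With a variance prior that follows intensity it did (adjusted p = 0.0494). On the 3 slides taken alone, IFN-λ2 minus IFN-β was 0.22, 0.35 and 0.16. A further probe that the design describes as similar to Ifi204 (LOC100048309) had means of 506 units in control, 7552 with IFN-λ2 and 7024 with IFN-β. Its cytokine difference was 0.10 (limma adjusted p = 0.583), and its IFN-λ2 and IFN-β arrays overlapped. Another probe described in this way (LOC638301) stayed near background, with means of 15, 17.6 and 16.4 units.

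Mnda is named after the human myeloid cell nuclear differentiation antigen, a PYHIN protein of blood cells. Its probe, which also lists the Ifi205 transcript, read 1007 and 594 units in untreated cells. With IFN-λ2 the readings were 9684, 9829 and 9715 units, and with IFN-β 7366, 8975 and 9216 units. The untreated arrays differed from each other more than the IFN-λ2 arrays did, all 6 treated arrays lay above them, and the lowest IFN-λ2 array lay above the highest IFN-β array. Mnda rose 12.6-fold with IFN-λ2 (log2 3.66, SE 0.21, limma adjusted p = 7.19e-05) and 10.96-fold with IFN-β (log2 3.45, SE 0.21, adjusted p = 0.000148). The cytokines differed by 0.20 on the log2 scale, with a 95% interval from -0.25 to 0.65 (limma adjusted p = 0.569), so that differences within these limits remain possible. In the methods' t-test the increase with IFN-β did not pass (adjusted p = 0.144). A further probe that the design describes as similar to Ifi205 (LOC100044430) went from a mean of 211 units in control to 2332 with IFN-λ2 and 1992 with IFN-β. Its cytokine difference of 0.23 did not pass either (adjusted p = 0.212). A second probe described as similar to Ifi205 (LOC100048634) stayed near background, with means of 17.8, 22.3 and 24.6 units (adjusted p = 0.231 with IFN-λ2 and 0.355 with IFN-β).

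Ifi203 encodes an interferon-inducible PYHIN protein and had 4 probes under its name, which did not all read alike. Probe A_55_P1988202 read 73.1 and 52.7 units in untreated cells, 904, 969 and 722 units after IFN-λ2, and 1011, 964 and 834 units after IFN-β. The treated groups overlapped each other and lay far above control. The increase was 13.8-fold with IFN-λ2 (log2 3.79, SE 0.18, limma adjusted p = 2.78e-05) and 15.04-fold with IFN-β (log2 3.91, SE 0.18, adjusted p = 3.50e-05). Probe A_55_P1966731 was at 15 units and not well above background in both untreated arrays. It read 138, 155 and 125 units after IFN-λ2 and 163, 144 and 145 units after IFN-β. These groups again overlapped, and the increase was at least 8.39-fold with IFN-λ2 (adjusted p = 4.72e-06) and at least 9.09-fold with IFN-β (adjusted p = 6.11e-06). Such a bound sets the mean of the brighter group against, for each dim array, its own value or the lowest value that array measured well above background, whichever was higher. IFN-λ2 minus IFN-β was -0.12 on the log2 scale for each of these probes (95% interval -0.51 to 0.27 for the first and -0.34 to 0.11 for the second), with limma adjusted p = 0.701 and 0.509. The increase of A_55_P1988202 with IFN-β did not pass in the methods' t-test (adjusted p = 0.0583). A further probe, A_55_P2173210, is described in the design as interferon activated gene 203 and lay 33.5 kb from the Ifi204 probe. Its means were 94.3 units in control, 1392 with IFN-λ2 and 1209 with IFN-β. There IFN-λ2 minus IFN-β was 0.20 (limma adjusted p = 0.278), opposite in sign to the -0.12 above, and these groups overlapped. Which gene it measures was not tested.

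The other pair of Ifi203 probes gave little signal. A_55_P1998843 read 15 and 26.8 units in untreated cells, 30.4, 28.5 and 30.3 units after IFN-λ2, and 30.7, 33.7 and 130 units after IFN-β, where replicate 3 stood apart. Its log2 differences from control, 0.57 with IFN-λ2 (limma adjusted p = 0.552) and 1.35 with IFN-β (adjusted p = 0.448), did not pass, although all 6 interferon arrays lay above both untreated arrays. Without IFN-β replicate 3 the latter was 0.68. A_55_P2004507 was at 15 units on all 8 arrays and was well above background on none. These 4 probes lie within one gene, and probe A_55_P2004507 lies between those that rose strongly, so that a reading at the floor from a single probe was no measure of the gene.

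Aim2, the cytosolic sensor of double-stranded DNA, had 1 probe, at chr1:175396036-175396095 on the plus strand of mm9. It was at 15 units on all 8 arrays, well above background on none, and not tested. Aim2 RNA was thus not detectable with this probe in untreated or stimulated cells, and no fold can be given.

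Pydc3, named as a pyrin domain gene, was the only tested member with probes that passed between the cytokines in the fit reported. Probe A_55_P2181222 read 263 and 195 units in untreated cells, 1099, 1123 and 1015 units after IFN-λ2, and 456, 521 and 518 units after IFN-β. The 3 groups did not overlap. The increase was 4.76-fold with IFN-λ2 (log2 2.25, SE 0.14, limma adjusted p = 9.21e-05) and 2.20-fold with IFN-β (log2 1.13, SE 0.14, adjusted p = 0.00762). IFN-λ2 exceeded IFN-β by 2.17-fold (log2 1.12, SE 0.12, 95% interval 0.83 to 1.41, adjusted p = 0.0023), and by 1.27, 1.11 and 0.97 on the log2 scale on the 3 slides taken alone. The increase with IFN-β did not pass when only the groups compared were fitted (adjusted p = 0.101) or in the methods' t-test (adjusted p = 0.28). Whether Pydc3 differed from the other members in its response was not tested.

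Probe A_66_P128761 of Pydc3 was at 15 units and not well above background in both untreated arrays. It read 90.5, 97.5 and 89.9 units after IFN-λ2 and 32.1, 33.7 and 33.2 units after IFN-β. Here too the groups did not overlap, and the arrays within each group lay close together. The increase was at least 5.60-fold with IFN-λ2 (limma adjusted p = 2.08e-06) and at least 2.00-fold with IFN-β (adjusted p = 0.000145), and IFN-λ2 exceeded IFN-β by 2.81-fold (log2 1.49, SE 0.062, adjusted p = 0.00012). On the 3 slides taken alone that difference lay between 1.44 and 1.53. The sizes depend on how the dim readings are treated: the log2 increase with IFN-λ2 of 2.63 was 1.501 with normexp background correction, 0.89 with a floor of 50 units and 4.05 without a floor, and the difference between the cytokines was 0.97, 0.89 and 1.49, each of which passed. With a floor of 50 units the IFN-β arrays cannot be told from control, and with normexp the increase with IFN-β did not pass (adjusted p = 0.156).

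Probe A_55_P2001233 lies next to A_55_P2181222 on the chromosome but had a much higher reading in untreated cells, 2194 and 2186 units. It read 4019, 3805 and 3916 units after IFN-λ2 and 2756, 2925 and 2916 units after IFN-β. The order of the groups was that of the other Pydc3 probes, with smaller differences. IFN-λ2 raised it 1.79-fold (log2 0.84, SE 0.067, limma adjusted p = 0.000336) and IFN-β 1.31-fold (log2 0.39, SE 0.067, adjusted p = 0.0411), and IFN-λ2 exceeded IFN-β by 1.37-fold (log2 0.45, SE 0.060, adjusted p = 0.00477). The increase with IFN-β did not hold with the replicate number as a block (adjusted p = 0.177), nor without any 1 of the 8 arrays (adjusted p between 0.0593 and 0.159), although its size stayed between 0.37 and 0.42. The probes of Pydc3 thus disagreed in the size of the change, and what the high control reading of A_55_P2001233 held was not tested.

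The fourth Pydc3 probe, A_55_P2036627, was at the edge of detection. It was at 15 units in the untreated and IFN-β arrays and read 18.5, 18.2 and 16.6 units after IFN-λ2, of which 1 array was well above background. Against a group at the floor its difference between IFN-λ2 and IFN-β has no measured size, and the fitted log2 value of 0.24 did not pass (limma adjusted p = 0.0563). It passed in 5 of 18 alternatives, with a size of 0.36 when the values were made again from the scanner output and 1.90 without a floor.

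**Figure D2:**
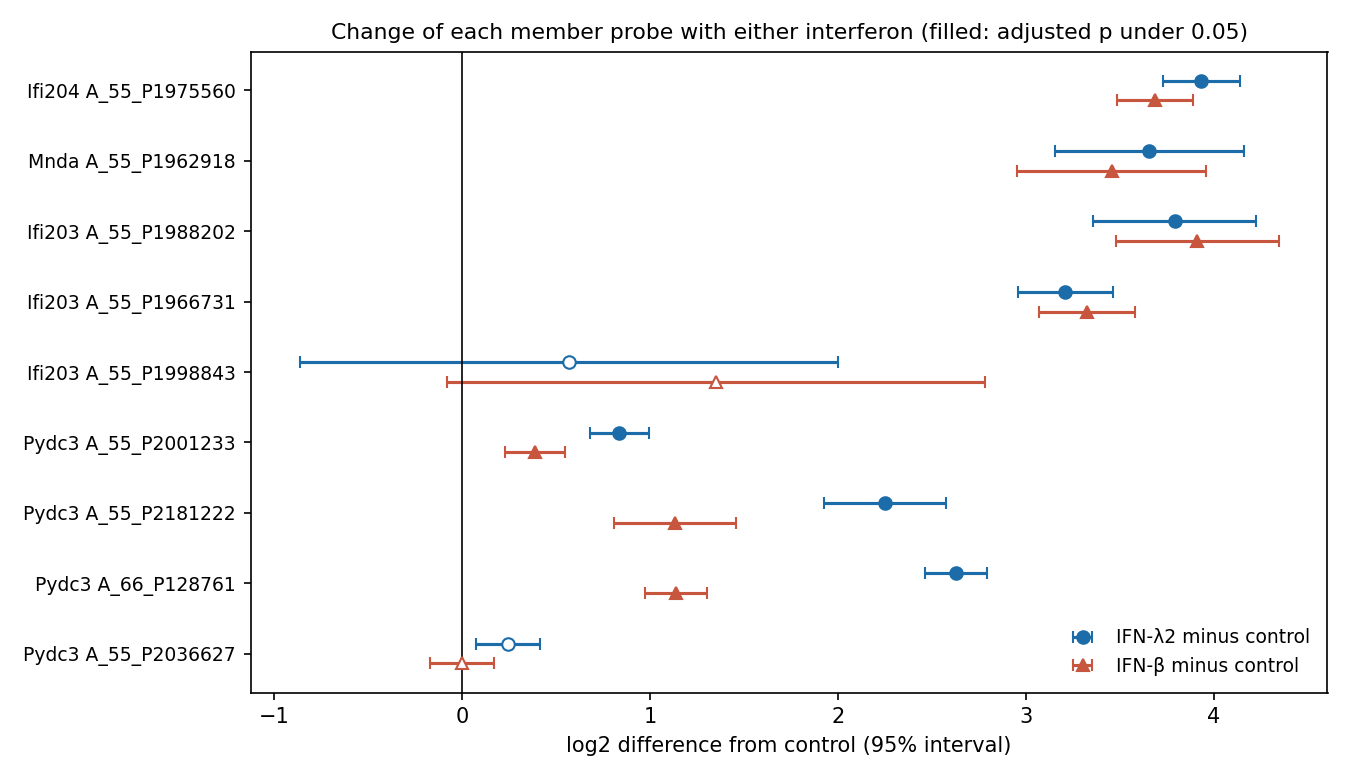
Log2 difference from control of each tested member probe, for IFN-λ2 (circles) and IFN-β (triangles), with 95% intervals from the limma fit; filled symbols have an adjusted p under 0.05. The intervals of the cytokines overlap for Ifi204, Mnda and Ifi203, and they lie apart for the 3 brighter Pydc3 probes.

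The remaining genes of the family lie in the same cluster. Of 8 other PYHIN genes, 7 had a probe and were tested (1 probe each, the brightest). After IFN-λ2 all 7 were higher than in control, as were 4 after IFN-β, against 10.8 and 1.51 percent of all probes, and in 4 the level with IFN-λ2 exceeded that with IFN-β, against 6.15 percent. Ifi206, Ifi209, Ifi213 and Ifi214 were at 15 units in both untreated arrays and entered the test only through the interferon arrays, so that these counts are descriptions. Ifi207 read 186 units in control, 2919 with IFN-λ2 and 1583 with IFN-β (group means), and the cytokines differed by 0.88 on the log2 scale (limma adjusted p = 0.00237). Ifi206 was not well above background in control and had group means of 184 and 73.1 units with IFN-λ2 and IFN-β, a difference of 1.33 (adjusted p = 0.000655). Ifi209, the gene listed as Pyhin1 in the design, read 132 and 35.7 units, a difference of 1.89 (adjusted p = 0.000259). It had 3 tested probes. The dimmer ones, A_55_P2036357 and A_55_P1974178, read 29.0 and 23.7 units with IFN-λ2 (group means) and were at 15 units in every IFN-β array. The rise of Ifi209 with IFN-β and the 1.89 thus rest on its brightest probe.

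In each of the 7 genes every IFN-β array lay below every IFN-λ2 array. Ifi214 was at 15 units in all untreated and IFN-β arrays and entered the test only through the IFN-λ2 arrays, where its level was at least 1.83-fold that with IFN-β. Mndal rose with both cytokines, from 57.1 to 563 and 417 units, and their difference of 0.43 did not pass (adjusted p = 0.287). Ifi202b rose with IFN-λ2 from 80.3 to 217 units (adjusted p = 0.00522) and read 130 units with IFN-β (adjusted p = 0.242 against control), and the difference between the cytokines of 0.71 did not pass (adjusted p = 0.0574). Ifi213 was at 15 units in control, at least 1.93-fold higher with IFN-λ2, and well above background on 1 IFN-β array only.

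**Figure D3:**
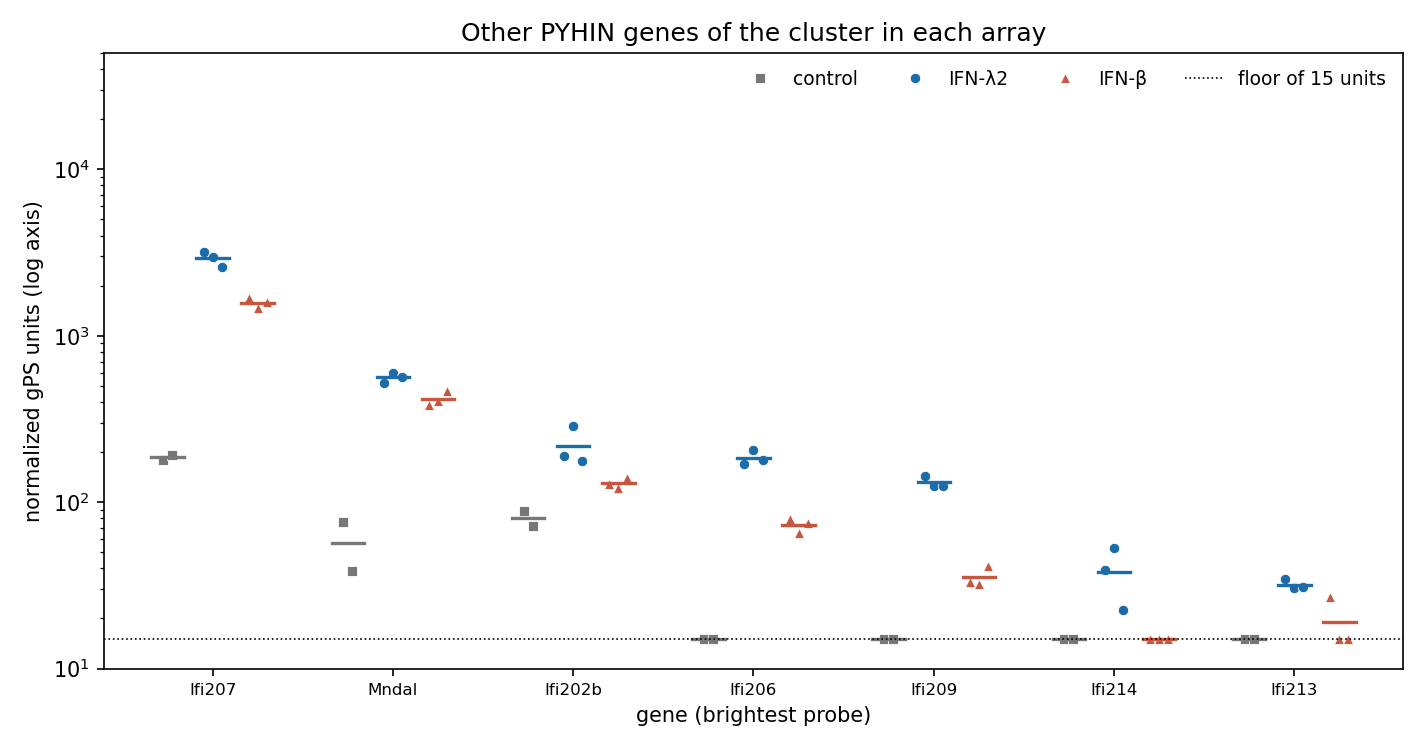
Signal of the 7 other PYHIN genes in each array, brightest probe of each, in normalized gPS units on a log axis, with symbols as in the plot of the members; short lines are group means. Ifi206, Ifi209, Ifi214 and Ifi213 were at the floor in untreated cells, and in all 7 genes the IFN-β arrays lie below all IFN-λ2 arrays.

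When the probes were placed along the chromosome (mm9), those of the cluster that passed the test between the cytokines lay on one side of Ifi204. A difference between the sides was not tested. This dividing point was chosen after the values were seen, so the counts are given with no test. Between Ifi206 and Ifi204, 13 of 15 tested probes of the cluster, unnamed ones included, were higher with IFN-λ2, against 6.15 percent of all probes. Some of these were at the floor with IFN-β and entered the test only through the IFN-λ2 arrays. Among the 8 that were well above background on all 6 interferon arrays, all 8 were higher, by 0.45 to 1.89. From Ifi204 onward, through Mndal, Mnda, Ifi203 and Ifi202b, 0 of 13 tested probes passed in limma, although 3 (Ifi204 and both probes of Ifi202b) had an unadjusted p under 0.05, and their log2 differences ran from -0.79 to 0.71. The lower end is the dim Ifi203 probe A_55_P1998843, whose difference was -0.11 without IFN-β replicate 3, and the 10 probes well above background on all 6 interferon arrays ran from -0.12 to 0.71. Among them every IFN-λ2 array lay above every IFN-β array for Ifi204, Mndal, Mnda, both probes of Ifi202b and the probe LOC100044430, and the 0.71 and 0.70 of Ifi202b exceeded the 0.45 of a Pydc3 probe that passed. Several probes on each side measure the same gene, and related genes may share signal, so that they are not independent. Within 1 Mb on either side of the member probes, 45 probes measured other genes. 13 of them were tested, and 1 was higher and 1 lower after IFN-λ2 than in control (10.8 and 8.25 percent of all probes), none passed with IFN-β in limma, and 1 was higher with IFN-λ2 in the comparison of the cytokines (6.15 percent).

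**Figure D4:**
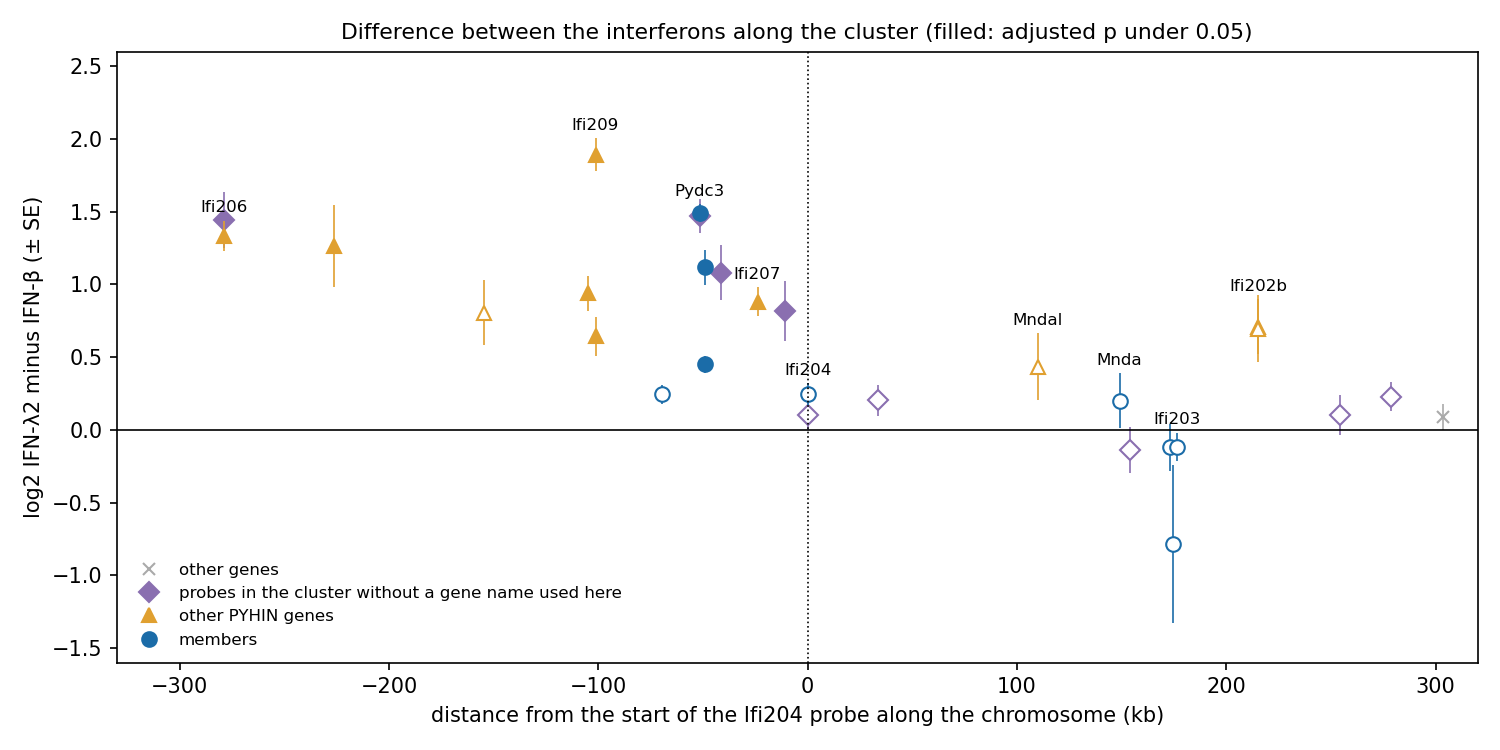
Log2 difference of IFN-λ2 minus IFN-β (± SE) for every tested probe of the cluster against its distance in kb from the Ifi204 probe, with members as circles, other PYHIN genes as triangles, unnamed probes as diamonds and other genes in the plotted range as crosses; filled symbols have an adjusted p under 0.05. All filled symbols lie to the left of the Ifi204 probe, and the cluster symbols to its right are open and lie between -0.12 and 0.71 where well above background on all 6 interferon arrays, with a dim Ifi203 probe at -0.79 that rests on 1 IFN-β array.

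The promoters of these genes were searched for the ISRE core (GAAA, any 2 bases, GAAA) on both strands, in the RefSeq windows that run from 250 bases before to 50 bases after each gene start (GRCm38.p6). The table held promoters for 5 of the 6 members, all but Ifi204. The ISRE core was in 4 of these 5 (Pydc3, Mnda, Ifi205 and the second of the 2 starts of Ifi203, but not Aim2), and in 9 of 12 PYHIN genes with an entry (all but Aim2, Ifi209 and Ifi202b, of which Ifi209 and Ifi202b rose with IFN-λ2), against 1131 of all 32851 promoters (3.44 percent). The windows around the match are given because they show how alike these promoters are, each 5′ to 3′ on the strand of the gene, with the ISRE core in capitals.
Pydc3, chr1:173673582-173673641, plus strand: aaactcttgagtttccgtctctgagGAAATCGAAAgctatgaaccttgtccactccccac
Ifi213, chr1:173599311-173599370, minus strand: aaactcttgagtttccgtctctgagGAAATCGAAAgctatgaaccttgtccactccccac
Ifi206, chr1:173491324-173491383, minus strand: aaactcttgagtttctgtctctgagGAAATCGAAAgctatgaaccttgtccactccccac
Ifi214, chr1:173536002-173536061, minus strand: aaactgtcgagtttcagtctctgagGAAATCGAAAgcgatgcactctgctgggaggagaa
Ifi207, chr1:173741816-173741875, minus strand: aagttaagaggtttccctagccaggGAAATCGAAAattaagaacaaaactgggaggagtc
Ifi203, chr1:173942493-173942552, minus strand: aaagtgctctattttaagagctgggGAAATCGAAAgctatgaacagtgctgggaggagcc
Mndal, chr1:173880189-173880248, minus strand: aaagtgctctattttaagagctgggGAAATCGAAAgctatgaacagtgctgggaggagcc
Mnda, chr1:173913049-173913108, minus strand: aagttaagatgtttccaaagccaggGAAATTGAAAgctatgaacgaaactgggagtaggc
Ifi205, chr1:174031855-174031914, minus strand: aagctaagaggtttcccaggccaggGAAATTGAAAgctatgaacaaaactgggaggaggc
The match shown began between 35 and 134 bases before the gene start in these 9 windows. A further match lay on the opposite strand in the promoter of Ifi205 (GAAAGTGAAA) and in that of the second start of Mndal (GAAAGAGAAA), and these are not shown.

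The window of Pydc3 equalled that of Ifi213 in 60 of 60 bases and that of Ifi206 in 59 of 60, and the windows of Ifi203 and Mndal were identical. Mnda and Ifi205 shared 54 of 60 bases, whereas Pydc3 shared 34 with Ifi203 and 30 with Mnda. Ifi207, which differed between the cytokines, shared 29 bases with Pydc3 but 52 with Ifi205 and 50 with Mnda, and Ifi214 shared 42 with Pydc3 and 42 with Ifi203. The form GAAATCGAAA, noticed after the matches were seen, occurred in 16 of the 32851 promoters (0.0487 percent), of which 7 belong to PYHIN genes, and the form GAAATTGAAA occurred in 38, of which 2 do. GAAATCGAAA was present both in genes that differed between the cytokines (Pydc3, Ifi206 and Ifi207) and in genes for which that difference did not pass (Ifi203 and Mndal). It was also present in the dim genes Ifi213, which did not pass, and Ifi214, which passed through its IFN-λ2 arrays against a group at the floor, whereas Ifi209, with a difference of 1.89, held no ISRE core in its window. Matches in identical stretches are not independent, and a match is a description of the letters only.

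The 5 genes outside the family whose profiles over the 8 arrays were most like that of Ifi204, the brightest member, were the oligoadenylate synthetase gene Oas1f (Pearson r = 0.9999), the galectin gene Lgals9 (0.9997), Oas1a (0.9995) and the GTPase genes Irgm1 (0.9994) and Gbp3 (0.9993). These r values are over 8 arrays in 3 groups and are a description. Their log2 increases were 3.01 to 4.87 with IFN-λ2 and 2.83 to 4.67 with IFN-β.

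Lists of inflammasome and cytosolic DNA sensing genes were also read, because AIM2 senses DNA and acts with ASC and caspase-1 in an inflammasome. Of 20 inflammasome genes, 15 were tested, of which IFN-λ2 raised 4 and IFN-β 1, against 10.8 and 1.51 percent of all probes. Pycard, which encodes the adaptor ASC, read 116, 101 and 112 units in control, IFN-λ2 and IFN-β, and Casp1 was not well above background in control or with IFN-β. Casp4, a caspase that binds bacterial lipopolysaccharide, rose with both, by 0.81 and 0.76 on the log2 scale (limma adjusted p = 0.00306 and 0.0159). Naip2, a receptor for bacterial secretion system proteins, rose with IFN-λ2 by 2.54 (adjusted p = 0.00137) and was 2.69 higher than with IFN-β (adjusted p = 0.00121). Nlrp1a, with 1 of its 2 probes tested, also rose with IFN-λ2, by 0.64, and exceeded its level with IFN-β (adjusted p = 0.00248 and 0.00261). Naip6 was at 15 units in all untreated and IFN-β arrays and could pass only through the IFN-λ2 arrays. Gsdmd, the pore-forming gasdermin D, had a level with IFN-λ2 that was 0.49 under its IFN-β level (adjusted p = 0.0218).

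Of 17 genes of cytosolic DNA sensing, all 17 were tested, and IFN-λ2 raised 6 and IFN-β 4, against the same 10.8 and 1.51 percent. Zbp1, a sensor of Z-form nucleic acid, rose by 5.27 and 5.14 on the log2 scale, and Irf7, a transcription factor of interferon genes, by 3.68 and 3.85 (limma adjusted p up to 5.43e-06 for either). The nucleases Trex1 and Samhd1 rose with both cytokines, and Samhd1 with IFN-λ2 was 0.35 below its IFN-β level (adjusted p = 0.0177). Cgas, the enzyme that makes cyclic GMP-AMP from DNA contact, rose with IFN-λ2 by 0.84 (adjusted p = 0.00177), and its change with IFN-β of 0.53 did not pass (adjusted p = 0.0548). Sting1, which encodes the receptor of cyclic GMP-AMP, did not pass in any comparison, with group means of 2577, 2423 and 2518 units in control, IFN-λ2 and IFN-β.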

How the data were processed

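Agilent whole mouse genome arrays (1 color, Cy3) were read with Feature Extraction 10.7.3.1, per the labels. The authors deposited the intensity of each feature and a table of processed intensities, which was checked to be the processed signal times 1 factor per array (0.628 to 0.712), on a linear scale, with a floor of 15 units. This table was used. RNA extraction is given as Trizol in the labels and as a column kit in the methods. Log2 values of probes above 15 units on at least 2 arrays (25615 of 39429) were fitted with limma 3.58.1 (R 4.3.3), with 3 group means over all 8 arrays and Benjamini-Hochberg adjustment. A probe was called at an adjusted p under 0.05, with no fold requirement. In place of sequencing depth, the number of arrays limits the precision.

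The members and gene lists were chosen with earlier results of these data known. Named genes are all member probes, list genes that passed or describe their list, the 5 genes most like the brightest member and probes within 1 Mb. Each list gene, markers included, is read from its brightest tested probe, or its brightest probe where none was tested. Further probes of the same gene may read otherwise. Of simulated probes shifted by 2 on the log2 scale, 92.0, 89.5 and 91.5 percent were recovered in the comparison of control with IFN-λ2, of control with IFN-β and of the cytokines, each among 25615 probes.

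The replicate number, which is also the slide, was checked as a pairing. Deviations of IFN-λ2 and IFN-β arrays with the same number correlated (r = 0.187, 0.277 and 0.317), whereas those with control arrays did not exceed 0.103. The fit reported has no block. Alternatives were the replicate block, other background corrections, normalizations, floors and filters, each array left out, the groups compared alone, a trend in the variance prior and the methods' t-test. Gene names follow RefSeq accessions or symbols of GRCm38.p6, and probe positions (mm9) were taken from the array files. Promoter sequences are from RefSeq. Tables were made with Python 3.11.15, pandas 2.3.3 and numpy 2.4.6. A second promoter motif that was searched is not reported here.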

Additional observations from a re-analysis of the deposited data

How the results depend on the processing

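Of 531 values of the 9 probes under the alternatives, 495 kept their side of the threshold, 12 passed where they had not, 24 no longer passed and none changed sign with a call. Among the 495, 2 uncalled differences between the cytokines changed sign, both of Ifi203: A_55_P1988202 to 0.0042 without IFN-λ2 replicate 3 and A_55_P1966731 to 0.038 with normexp. The number of probes higher after IFN-λ2 stayed between 5 and 8 under the other processing, and was 7 to 8 without 1 array. After IFN-β it was 6 without any 1 array, 6 with the replicate block, 3 with the methods' t-test after adjustment and 4 at the methods' p and 2-fold. Between the cytokines it was 2 to 4, and 3 without any 1 array. With only the probes that carry a member name in the design, a choice made after seeing the data, the counts were 4, 4 and 0. The replicate block changed no call other than the increase of Pydc3 probe A_55_P2001233 with IFN-β. The 2 untreated arrays limit every comparison with control, and readings near the floor limit the dim Ifi203 and Pydc3 probes. The causes of these changes were not tested.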
